A study of Mus musculus with 6 samples.

Results

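The 6 genes described here encode the MARK and NUAK kinases, and were taken by their symbols, Mark1, Mark2, Mark3, Mark4, Nuak1 and Nuak2, from the 31055 features of a single-cell RNA count matrix of mouse lung tumour cells. All 6 had at least 1 UMI (unique molecular identifier, the tag that marks 1 captured RNA molecule) per 1000000 UMIs (CPM) over the kept cells, the minimum for a ratio to be compared with those of other genes, and they were 6 of the 12323 genes that reached it. Mark1 reached it through cells with fibroblast markers, which held 97.3% of its UMIs, so it is left out of the counts of members past a fold. Levels were compared between 3 gates of cells and between cells with a UMI of the gene trap and cells with a UMI of the untrapped gene. The gates use UMIs per 10000 of a cell: ATII, alveolar type II-like, with Sftpc at least 500, Hopx under 2 and Krt8 plus Krt18 under 50; ATI, alveolar type I-like, with Hopx at least 15 and the same keratin limit; and keratin-high, with Krt8 plus Krt18 at least 50.

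The matrix pools 6 mice whose tumours, started with a Cre-bearing lentivirus, had grown for 20 weeks before 2 weeks of treatment. All 6 carried KrasLSL-G12D, which Cre turns into an oncogene, Rosa26LSL-tdTomato, which Cre turns into a red label, and 2 copies of Lkb1XTR, in which Cre flips a GFP-bearing gene trap into a working position in the first intron of Lkb1 (Stk11). In mice that also carry FLPo-ERT2, a recombinase active only under tamoxifen, the trap is then cut out again and Lkb1 is restored. The Restored cohort was 3 mice with FLPo-ERT2 given tamoxifen, 2 male and 1 female; the NonRestored cohort was 1 male without FLPo-ERT2 given tamoxifen, 1 male without it given vehicle and 1 female with it given vehicle. Neoplastic cells were sorted as live, tdTomato-positive and negative for CD45, CD31, F4/80 and Ter119, and 3′ libraries were made by droplet capture.

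The matrix numbers its cells without naming their mice and no list that ties cells to mice was used here, so the cohorts were not analysed here, all cells were treated as 1 pooled sample, and no test, p-value or replicate error is given. Each level is given with an exact 95% Poisson interval and each ratio with an exact conditional 95% interval, and both cover counting error only, not differences between mice. Barcodes shared between libraries were not counted. Of 16017 cells, 2081 had under 500 genes and 1753 of the others had over 20% mitochondrial UMIs, which left 12183 cells with a median of 19348 UMIs. The gates held 6975 ATII, 956 ATI and 1183 keratin-high cells, and 3069 cells fell in none. The median depth was 21660 UMIs in ATII, 11796.5 in ATI and 23490 in keratin-high cells, and ATI levels therefore rest on the fewest UMIs. The gate names held against their markers: 9 of 9 ATII, 8 of 8 ATI and 6 of 6 transitional markers were highest in the matching gate, although these include the genes that make the gates. A TdTomato UMI was found in 99.4% of ATI cells and at least that share of the other 2 gates, and in 80.6% of 247 cells that passed a gate on fibroblast markers.

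LKB1 is a master kinase: it phosphorylates a threonine in the activation loop of AMPK and of a family of related kinases, among them the MARKs and NUAKs. The MARKs, known in worms and flies as PAR-1, phosphorylate microtubule-associated proteins and polarity proteins, and their marks on many substrates are bound by 14-3-3 proteins. The NUAKs act on the myosin phosphatase, through its targeting subunit MYPT1, and so on the contractility and adhesion of cells. In lung tumours that lack LKB1 these kinases would lose that input as proteins, which was not measured here. The counts below are of their RNA and carry no information on phosphorylation.

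The coding sequence of the activation loop is shown for all 6 genes, because the threonine codon in capitals is the site on which LKB1 acts. AMPK and the other related kinases have such a threonine too. Each sequence runs 5′ to 3′ on the coding strand over 81 bases, or 27 codons, was read from the GENCODE M21 transcript with the longest open reading frame that holds the loop, and lies in a single exon of GRCm38.

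Mark1: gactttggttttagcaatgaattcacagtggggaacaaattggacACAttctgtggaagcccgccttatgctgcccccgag

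Mark2: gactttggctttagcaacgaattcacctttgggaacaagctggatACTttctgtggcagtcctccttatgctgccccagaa

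Mark3: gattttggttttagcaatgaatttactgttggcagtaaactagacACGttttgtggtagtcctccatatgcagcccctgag

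Mark4: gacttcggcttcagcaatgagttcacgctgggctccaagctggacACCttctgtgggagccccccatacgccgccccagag

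Nuak1: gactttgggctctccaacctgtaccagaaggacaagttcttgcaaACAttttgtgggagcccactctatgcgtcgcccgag

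Nuak2: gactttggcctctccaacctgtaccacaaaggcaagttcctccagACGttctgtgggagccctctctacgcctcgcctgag

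The codon in capitals is residue 215 of the Mark1 protein, 208 of Mark2, 211 of Mark3, 214 of Mark4, 212 of Nuak1 and 220 of Nuak2, counted from the first methionine. Between any 2 of the MARK genes, 25 or 26 of the 27 encoded residues were the same, and between Nuak1 and Nuak2 25 were. Across the families the count was 16 residues for any MARK against Nuak1 and 17 against Nuak2. The bases were less alike, with 59 of 81 shared by Mark3 and Mark4 and 67 by Mark1 and Mark2, 68 by Nuak1 and Nuak2, and 43 to 51 across the families. These 3′ libraries read the far end of a transcript, so the loop was not itself sequenced.

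On GRCm38, Mark1 (ENSMUSG00000026620) lies on the minus strand at chr1:184896789-184999570, with its loop in exon 8 of 18 at chr1:184919629-184919709. Mark2 (ENSMUSG00000024969) is at chr19:7275396-7341860 on the minus strand, with its loop in exon 9 of 19 at chr19:7285843-7285923. Mark3 (ENSMUSG00000007411) is at chr12:111574523-111656221 on the plus strand, with its loop in exon 8 of 18 at chr12:111627121-111627201. Mark4 (ENSMUSG00000030397) occupies chr7:19424775-19458821 on the minus strand, with its loop in exon 8 of 17 at chr7:19443228-19443308. Nuak1 (ENSMUSG00000020032) covers chr10:84370905-84440597 on the minus strand, with its loop in exon 5 of 7 at chr10:84380780-84380860. Nuak2 (ENSMUSG00000009772) is the shortest of the 6 at chr1:132316126-132333488 on the plus strand, with its loop in exon 6 of 8 at chr1:132329964-132330044. Of the 6, Mark3 was the only one with another annotated gene, Gm48286, overlapping it on its own strand; Gm38251 and Gm17227 overlap Mark1 and Mark2 on the other strand, and the remaining 3 overlap none.

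The members differed in how many cells held a UMI. Mark2 was found in 8406 of the 12183 kept cells, or 69.0%, and Mark3 in 7889, or 64.8%. Nuak2 was found in 3150 cells, or 25.9%, and Mark4 in 2776, or 22.8%. Nuak1 was found in 761 cells, or 6.25%, and Mark1 in 165, or 1.35%. As levels over all kept cells they were 73.2, 61.8, 18.0, 12.8, 3.37 and 1.85 CPM in that order. These are UMI shares that are not divided by transcript length, so the order says how well each gene was sampled, and the genes themselves are not ranked. The median gene tested had 17.2 CPM. Even the best sampled gene was counted in few molecules a cell: ATII cells with a Mark2 UMI had 2.20 on average, 39.4% of them had exactly 1 and the highest had 12. For Nuak1, 405 ATII cells had a single UMI, 36 had 2 and 4 had 3.

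Mark1 was close to absent from the tumour cell gates. Its 475 UMIs included 10 in ATII cells (0.0619 CPM, 0.0297 to 0.114), 5 of them in 1 cell, and none in ATI or keratin-high cells. The exact 95% upper bounds of a count of 0 were 0.276 CPM in the ATI and 0.120 CPM in the keratin-high cells, and the limit of 3 counts was 0.225 and 0.0978 CPM. In cells thinned at random to 5000 UMIs each, so that depth is equal, a Mark1 UMI was seen in 1 of 6772 ATII cells (0.0148%). It was seen in 0 of 841 ATI and 0 of 1090 keratin-high cells, which allows shares of up to 0.438% and 0.338%. No ratio between gates was formed for Mark1.

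Mark2, a MARK found at the lateral membrane of polarised epithelia, had its lowest CPM in ATII and its highest in keratin-high cells, though relative to the median gene the ATI level fell on the other side of ATII. Its level was 68.5 CPM in ATII cells (67.2 to 69.7, from 11057 UMIs), 81.3 in ATI (76.5 to 86.3) and 88.0 in keratin-high cells (84.7 to 91.4). The keratin-high level was 1.29 times that of ATII (1.23 to 1.34), the ATI level 1.19 times (1.11 to 1.26), and keratin-high over ATI 1.08 (1.01 to 1.16). All 3 CPM ratios were beyond counting error. With the 10 most abundant genes left out of the total, the ratios against ATI were no longer separated, at 1.04 for ATI over ATII (0.978 to 1.11) and 1.005 for keratin-high over ATI (0.936 to 1.08).

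**Figure D1:**
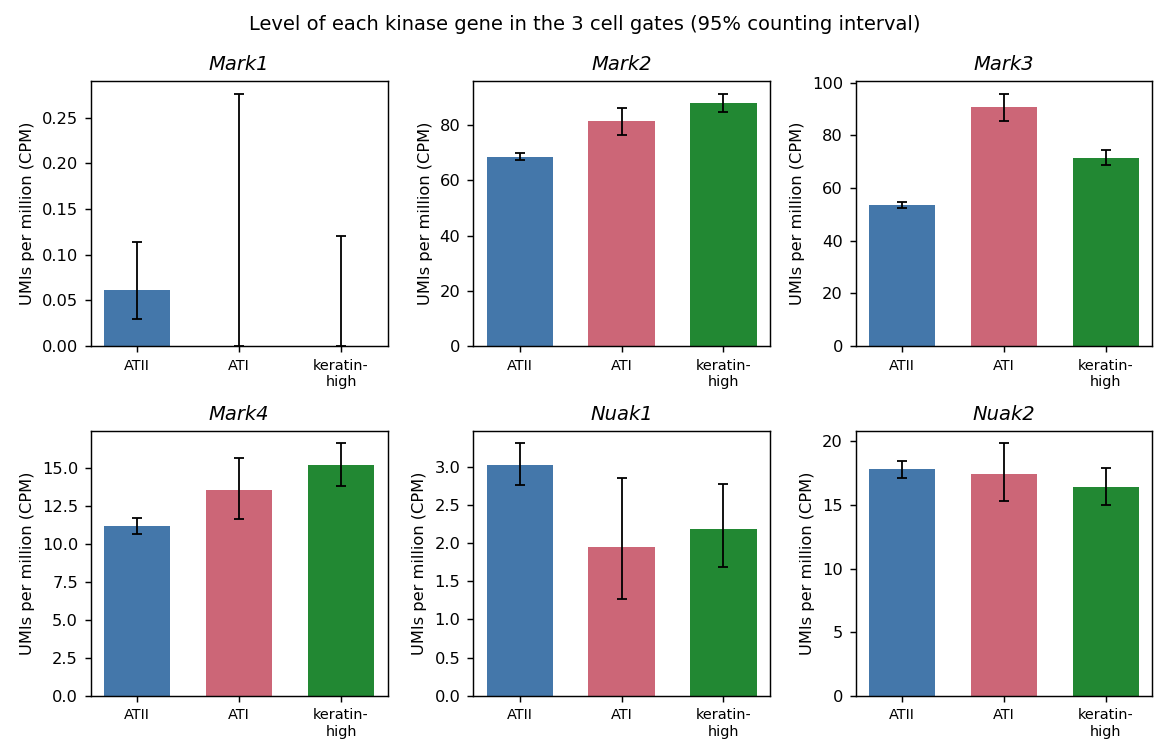
Level of each of the 6 genes in ATII, ATI and keratin-high cells, in UMIs per 1000000 (CPM, axes from 0, a separate scale for each gene). Bars are the pooled level of all cells of a gate and lines the exact 95% Poisson interval, which covers counting error only. Mark2 was lowest in ATII cells at 68.5 CPM, Mark3 was highest in ATI cells at 90.6 CPM, Nuak1 was highest in ATII cells at 3.03 CPM, the 3 intervals of Nuak2 overlap, and Mark1 had no UMI in ATI or keratin-high cells.

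Mark3 was the member that set the ATI gate apart. It had 53.6 CPM in ATII cells (52.5 to 54.7, from 8659 UMIs), 71.5 in keratin-high (68.6 to 74.6) and 90.6 in ATI cells (85.6 to 95.9). Neither of the neighbouring pairs in this order overlapped. ATI cells had 1.69 times the ATII level (1.59 to 1.80), a ratio above that of 79.8% of the genes tested, keratin-high cells 1.33 times (1.27 to 1.40), and keratin-high cells 0.790 times the ATI level (0.736 to 0.848). With the 10 most abundant genes left out of the total, the log2 ratio was 0.57 for ATI over ATII, short of 1.5-fold. For keratin-high over ATII it was 0.12.

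Mark4, known for acting on tau and other microtubule-associated proteins, had 11.2 CPM in ATII cells (10.7 to 11.7), 13.6 in ATI (11.7 to 15.7) and 15.2 in keratin-high cells (13.8 to 16.6). By CPM both were above ATII, by 1.21 (1.04 to 1.42) and 1.36 times (1.23 to 1.51), but without the 10 most abundant genes the ratios were 1.07 (0.909 to 1.24) and 1.11 (0.998 to 1.23), neither of them separated. The ATI and keratin-high levels were not separated by counting, at a ratio of 1.12 (0.942 to 1.34).

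Nuak1 ran the other way. It had 3.03 CPM in ATII cells (2.77 to 3.31, from 489 UMIs), 2.18 in keratin-high (1.69 to 2.77, from 67) and 1.95 in ATI cells (1.27 to 2.86, from 26). The ATI level was 0.644 times that of ATII (0.416 to 0.955) and the keratin-high level 0.722 times (0.550 to 0.933), which was no longer separated with the keratin limit at 35 or 75, at 0.816 (0.657 to 1.005) and 0.808 (0.572 to 1.11). The ATI ratio was not separated with Sftpc at least 1000, at 0.684 (0.441 to 1.02). Keratin-high and ATI cells were not separated, at a ratio of 1.12 (0.703 to 1.84). In thinned cells the shares with a UMI were 1.65% in ATII, 0.595% in ATI and 1.01% in keratin-high cells, against 6.38%, 2.72% and 5.33% before thinning. The thinned log2 ratio of ATI over ATII cells was −1.51, on 5 ATI cells with a UMI, against −0.64 before thinning. Cells of the immune marker gate, with a median of 23683.5 UMIs, gave 1 UMI in all (0.530 CPM, 0.0134 to 2.95), and none was left in 72 thinned cells, which allows a share of up to 4.99%, a limit too wide to set against the shares of the 3 gates.

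Nuak2, a gene known to respond to cell stress, had 17.8 CPM in ATII cells (17.2 to 18.5), 17.5 in ATI (15.3 to 19.9) and 16.4 in keratin-high cells (15.03 to 17.9). By CPM no pair of gates was separated by counting: keratin-high over ATII was 0.923 (0.838 to 1.01), ATI over ATII 0.981 (0.854 to 1.12) and keratin-high over ATI 0.941 (0.804 to 1.10). Without the 10 most abundant genes both were lower than ATII, at 0.752 (0.682 to 0.826) and 0.860 (0.749 to 0.983). The ATI level leaned on few cells, since 1 of the 956 cells held 18 of the 233 UMIs and the level without it was 16.1 CPM. In thinned cells 5.83% of ATI and 8.46% of ATII cells had a Nuak2 UMI (15.4% and 28.5% before thinning), a gap that the pooled levels do not show, and no order is read from it.

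The differences between gates were then set against those of all genes. Of the 12323 genes tested, 44.7% differed by at least 1.5-fold between keratin-high and ATII cells, and 0 of the 5 members other than Mark1 did. Between ATI and ATII cells 42.8% of genes were past that fold, and so were Mark3, higher in ATI, and Nuak1, lower in ATI. Between keratin-high and ATI cells it was 28.3% of genes and 0 members. The scale matters here. Sftpc took 155328 CPM in ATII cells and 19249.8 CPM in keratin-high cells, and the median gene was higher by 0.33 on the log2 scale in keratin-high than in ATII cells, and by 0.33 in ATI cells. Of the genes past the fold, 72.6% were higher in keratin-high cells and 70.0% in ATI cells, against 47.1% and 42.1% once that median was taken off. Relative to the median gene the log2 ratio of keratin-high over ATII cells was 0.03 for Mark2, 0.08 for Mark3 and 0.11 for Mark4, which left the 3 near the typical gene, and it was −0.80 for Nuak1 and −0.45 for Nuak2. For ATI over ATII cells on the same scale Mark3 was at 0.42, no longer past 1.5-fold, Mark2 at −0.08, Mark4 at −0.05, Nuak2 at −0.36 and Nuak1 at −0.97. On that scale the direction of Mark2 and Mark4 in ATI cells is thus the reverse of the CPM ratio, and only Nuak1 was past 1.5-fold in either comparison, lower in both. Of the genes tested, 35.9% were past 1.5-fold on that scale for keratin-high over ATII cells and 33.8% for ATI over ATII cells.

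Levels were also read along the keratins and along Hopx, in finer bins than the gates. With the cells of the fibroblast, endothelial and immune marker gates left out, the Mark2 level was 67.2 CPM (65.7 to 68.8) in 5300 cells with under 10 keratin UMIs per 10000, 74.1 (72.2 to 76.0) from 10 to 25 and 81.8 (78.7 to 85.1) from 25 to 50. It was 84.6 (80.8 to 88.6) from 50 to 100, and 95.2 (89.1 to 102) in the 334 cells at 100 or more. Each step up in keratin had the higher Mark2 level, and of the neighbouring bins only 25 to 50 and 50 to 100 overlapped. Over all kept cells the top bin had 1.43 times the Mark2 level of the lowest (1.34 to 1.54), where the median gene was at 1.20, 49.8% of genes were past 1.5-fold and the Mark2 ratio was above that of 63.5% of genes. Mark4 was likewise higher at each step, with 11.1, 12.4, 14.1, 14.8 and 16.0 CPM, where neighbouring bins overlapped but the lowest (10.5 to 11.7) and the highest (13.6 to 18.8) did not. Mark3 over the same bins stopped climbing: it had 54.3, 62.6, 74.2, 71.5 and 71.5 CPM.

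For Mark3 the bins of Hopx, a gene of ATI cells, gave the wider range. Among cells with under 50 keratin UMIs it had 53.6 CPM in ATII cells, 66.3 (63.1 to 69.6) in 1129 Sftpc-high cells with Hopx from 2 to 15, and 90.6 in ATI cells. Among keratin-high cells it had 67.9 CPM (64.2 to 71.9) with Hopx under 2, 73.9 (68.8 to 79.2) from 2 to 15 and 89.9 (77.6 to 104) at 15 or more. In both sets the Mark3 level was highest with Hopx at 15 or more. The upper keratin-high bin was 1.32 times the lowest (1.13 to 1.54), above the ratio of 71.0% of genes, of which 31.5% were past 1.5-fold, while neighbouring keratin-high bins overlapped. Mark2 gave 0.890 for the same ratio (0.755 to 1.04).

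**Figure D2:**
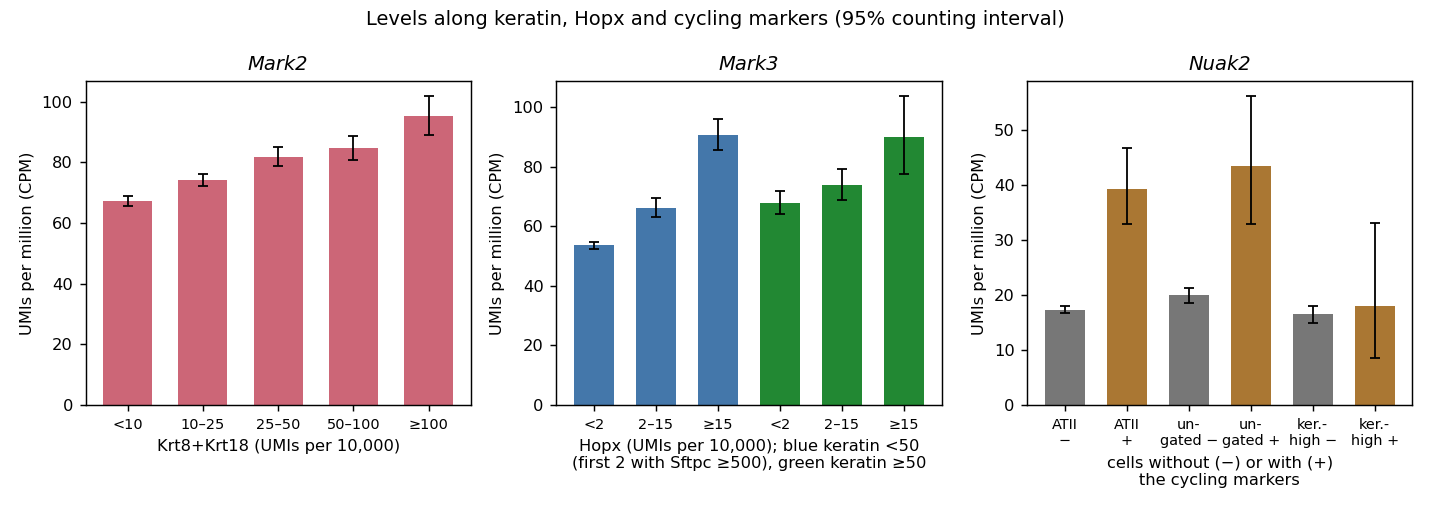
Levels in UMIs per 1000000 (CPM, axes from 0) with exact 95% Poisson intervals. Left, Mark2 by the summed Krt8 and Krt18 UMIs per 10000 of a cell, from 67.2 CPM in the lowest to 95.2 in the highest bin; middle, Mark3 by Hopx UMIs per 10000, in cells under (blue) and over (green) the keratin limit, highest at 15 or more Hopx UMIs in both; right, Nuak2 in cells without and with cycling markers, where ATII and ungated cycling cells were higher at 39.3 and 43.3 CPM and the keratin-high pair was not separated.

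Nuak2, whose CPM did not separate the gates, differed between cycling and other cells. Cycling cells were taken as those with at least 10 UMIs per 10000 over 10 genes of the S, G2 and M phases, and cells of the fibroblast, endothelial, immune or ciliated marker gates were left out. In 85 cycling ATII cells the Nuak2 level was 39.3 CPM (130 UMIs), against 17.3 CPM in 6879 other ATII cells, a ratio of 2.27 (1.89 to 2.71). In the ungated cells the levels were 43.3 CPM in 52 cycling and 19.9 CPM in 2501 other cells, a ratio of 2.17 (1.64 to 2.84). The 18 cycling keratin-high cells had 10 UMIs (18.0 CPM) and were not separated from the rest, at 1.09 (0.521 to 2.03), an interval that overlaps those of the other 2 pairs. The background is again large, with 36.5% of genes past 1.5-fold between cycling and other ATII cells and 35.9% in the ungated cells. Nuak2 was the only member past the fold and separated by counting in both pairs. Mark2 was at 1.19 (1.05 to 1.34) in the ATII pair and 1.10 (0.904 to 1.32) in the ungated one, Mark3 at 0.896 (0.761 to 1.05) and 0.840 (0.668 to 1.04), and Mark4 at 0.9748 (0.680 to 1.35) and 0.861 (0.498 to 1.39). Nuak1 had 6 UMIs in cycling ATII cells and 1 in cycling ungated cells, with ratios of 0.595 (0.217 to 1.31) and 0.218 (0.00548 to 1.23), both of them past the fold and neither beyond counting error. The median depth of all 167 cycling cells was 33692 UMIs.

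The sort left some cells with markers of other types, and Mark1 UMIs came largely from them. Most Nuak1 UMIs did not, with 56.4% of them in ATII cells, which held 62.8% of all UMIs. Gates of at least 20 UMIs per 10000 over 5 fibroblast genes, and at least 10 over 4 endothelial or 6 immune genes, held 247, 129 and 82 kept cells, of which 241, 126 and 78 lay outside the 3 tumour cell gates. In these cells Mgp was found in 99.6% of the fibroblast gate, Ramp2 in 98.4% of the endothelial gate and Laptm5 in 97.6% of the immune gate, though the macrophage gene C1qa was in only 6.10% of the last. The gate on 5 ciliated cell genes went against its name: Tppp3 made up 71.0% of its marker UMIs, Foxj1 was in 22.2% of its 221 cells, and 131 of those were keratin-high cells. It is not described further.

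Fibroblast gate cells held 462 of the 475 Mark1 UMIs, or 97.3%, in 1.56% of all UMIs. Their level was 115 CPM (105 to 126), against 0.138 CPM (0.0505 to 0.299, from 6 UMIs) in the 2553 ungated cells that passed none of these gates, a ratio of 838 (382 to 2296). In thinned cells, 77 of 188 fibroblast gate cells (41.0%, and 63.6% before thinning, at a median depth of 15058 UMIs) had a Mark1 UMI. Endothelial cells held 3 UMIs and immune cells none.

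Nuak1 was higher in both stromal gates. It had 28.0 CPM (23.0 to 33.6) in fibroblast gate cells and 14.99 CPM (9.70 to 22.1) in endothelial gate cells, against 3.35 CPM (2.83 to 3.94) in the other ungated cells, ratios of 8.35 (6.47 to 10.8) and 4.48 (2.80 to 6.87). Fibroblast gate cells held 12.9% of the Nuak1 UMIs in 1.56% of all UMIs, and endothelial gate cells 2.88% in 0.649%.

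Mark4 stood out in endothelial gate cells, with 58.1 CPM (47.2 to 70.9, from 97 UMIs), 3.96 times the level of the other ungated cells (3.16 to 4.90), and had 21.5 CPM (17.2 to 26.5) in fibroblast gate cells. Nuak2 was the reverse of Nuak1: it was lowest in fibroblast gate cells at 5.49 CPM (3.44 to 8.32), 0.266 times the other ungated cells (0.166 to 0.405), and highest in immune gate cells at 37.1 CPM (28.9 to 46.9), 1.80 times (1.39 to 2.29). Mark2 was lower in fibroblast gate cells, at 42.7 CPM and 0.529 times (0.451 to 0.617), and Mark3 was lower in immune gate cells, at 36.6 CPM and 0.492 times (0.382 to 0.624).

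Counted over all genes, 49.8% were past 1.5-fold between fibroblast gate and other ungated cells, 52.8% for endothelial and 57.3% for immune gate cells. In the fibroblast comparison Nuak1 was past it upward and Mark2 and Nuak2 downward. Mark1 is not counted there, since its place among the tested genes rests on the fibroblast gate cells. In the endothelial one Mark4 and Nuak1 were past it upward and Nuak2, at 0.580 (0.353 to 0.902), downward. In the immune one Nuak2 was past it upward, and Mark3, Mark4, at 0.649 (0.382 to 1.03), and Nuak1, at 0.158 (0.00398 to 0.896), downward.

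**Figure D3:**
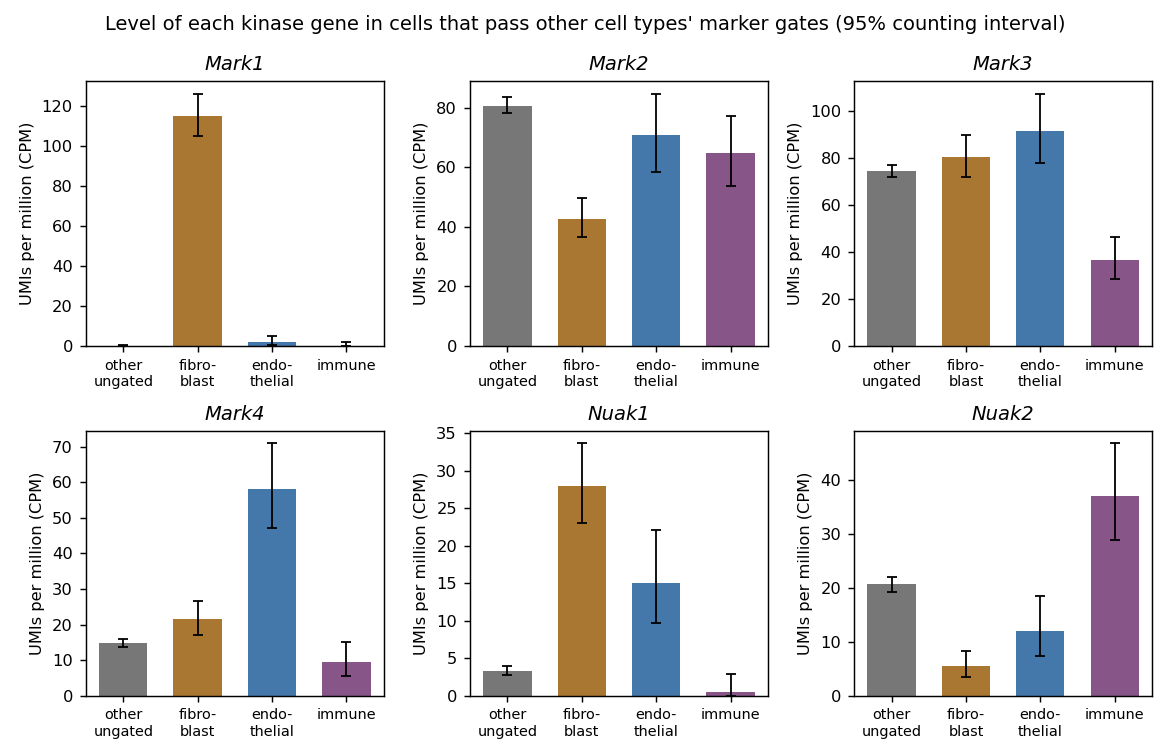
Level of each gene in UMIs per 1000000 (CPM, axes from 0, a separate scale for each gene) in ungated cells without other cell types' markers and in cells that pass the fibroblast, endothelial or immune marker gate. Lines are exact 95% Poisson intervals. Mark1 was at 115 CPM in fibroblast gate cells and at or below 1.80 CPM elsewhere, Nuak1 was highest in fibroblast gate cells at 28.0 CPM, Mark4 in endothelial gate cells at 58.1 CPM and Nuak2 in immune gate cells at 37.1 CPM.

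The last comparison asks whether these kinases differ with the state of the Lkb1 locus in the same pool. A GFP UMI comes from the trapped allele and a Stk11 UMI from a transcript that reads on into the gene's 3′ end. There were 3360 cells with GFP alone, 3367 with Stk11 alone, 29 with both, which were left out, and 5427 with neither. The cells with neither had a median of 12780 UMIs, against 24516.5 and 23635 in the GFP-positive and Stk11-positive cells, so a missing UMI is not evidence of a missing transcript. The split names neither a mouse nor a treatment. It also sorts cells by state: 642 GFP-positive but 165 Stk11-positive cells were keratin-high, 101 and 28 passed the cycling gate, and 2 and 52 the fibroblast gate. The part these differences play in the ratios over all kept cells was not tested, and the ratios within each gate are given beside them.

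Over all kept cells every member but Mark1 had the higher CPM in GFP-positive cells, by 1.10 to 1.33 times, and for Nuak1 that direction turned relative to the median gene. Mark2 had 81.1 CPM in GFP-positive and 64.5 CPM in Stk11-positive cells, a ratio of 1.26 (1.21 to 1.30). Mark3 had 67.8 and 52.6 CPM, or 1.29 (1.24 to 1.34). Nuak2 had 20.2 and 15.3 CPM, or 1.33 (1.23 to 1.43). These 3 were separated by counting, as was Mark4 with 13.03 and 11.3 CPM, or 1.15 (1.06 to 1.26), a direction that was lost in cells thinned to 5000 UMIs, at −0.0026 on the log2 scale, and turned within the ATI and keratin-high gates. Nuak1, with 3.12 and 2.83 CPM, was not, at 1.10 (0.926 to 1.32). Without the cells of the fibroblast, endothelial, immune and ciliated marker gates it was, with 3.06 and 2.29 CPM, or 1.34 (1.11 to 1.62). In this comparison 18.8% of genes were past 1.5-fold, and 0 of the 5 members were. Mark1, which is not counted, had 7 UMIs in GFP-positive and 136 in Stk11-positive cells, a ratio of 0.0489 (0.0193 to 0.104). Without the cells of the same marker gates the Mark1 counts were 4 and 0.

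The median gene was higher in GFP-positive cells too, by 0.20 on the log2 scale, and 57.1% of the genes past the fold were higher, against 37.0% relative to that median. On the relative scale the log2 ratio was 0.21 for Nuak2, 0.17 for Mark3, 0.13 for Mark2, 0.01 for Mark4 and −0.06 for Nuak1. Without the marker gate cells the log2 ratio of Nuak1, not set against a median gene, was 0.42. Mark4 sat at the typical gene.

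Within the ATII gate, where 1742 GFP-positive and 2353 Stk11-positive cells had nearly the same median depth, 25472.5 and 25078 UMIs, the NUAKs had the larger ratios. Nuak1 had 3.67 CPM (3.14 to 4.25, from 174 UMIs) in GFP-positive and 2.30 CPM (1.94 to 2.71, from 144) in Stk11-positive cells, a ratio of 1.59 (1.27 to 2.00), and Nuak2 had 20.9 and 15.3 CPM, or 1.37 (1.2499 to 1.496). Mark2 was at 1.19 (1.14 to 1.247), Mark3 at 1.26 (1.20 to 1.33) and Mark4 at 1.22 (1.09 to 1.37). In this gate 15.1% of genes were past 1.5-fold and Nuak1 was the only one of the 5 members to be; its ratio was above that of 90.8% of the genes tested and that of Nuak2 above 83.2%. The median gene was higher by 0.18 on the log2 scale, and 73.7% of the genes past the fold were higher, or 57.0% relative to that median. On the relative scale Nuak1 was at 0.49, short of 1.5-fold, Nuak2 at 0.27, Mark3 at 0.15, Mark4 at 0.10 and Mark2 at 0.07. In thinned cells the log2 ratio of Nuak1 by CPM was 1.40, against 0.67 before thinning. It rested there on 40 GFP-positive and 20 Stk11-positive cells with a UMI.

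The ATI gate, with 242 and 266 cells, gave wider intervals. Mark2 had 89.6 CPM in GFP-positive and 68.0 CPM in Stk11-positive cells, or 1.32 (1.13 to 1.54), and Mark3 97.2 and 80.4 CPM, or 1.21 (1.05 to 1.40). Nuak1 was past 1.5-fold, as were 19.2% of genes, but on 11 against 6 UMIs, at 1.85 (0.629 to 6.11). Nuak2, at 1.33 (0.957 to 1.87), and Mark4, at 0.974 (0.653 to 1.45), were not separated. The median gene was at 0.11, and 61.1% of the genes past the fold were higher, or 47.5% relative to it.

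Among keratin-high cells Mark2 alone was separated. It had 90.9 CPM in 642 GFP-positive and 70.4 CPM in 165 Stk11-positive cells, or 1.29 (1.15 to 1.46), above the ratio of 80.8% of the genes tested. Mark3 was at 1.02 (0.904 to 1.16), an interval below its ATII ratio of 1.26, Mark4 at 0.885 (0.688 to 1.15), Nuak1 at 0.956 (0.487 to 2.05) and Nuak2 at 1.16 (0.891 to 1.53). By pooled CPM no member was past 1.5-fold, against 19.0% of genes. By pooled CPM Mark2 was thus higher beyond counting error in the GFP-positive cells of all 3 gates, Mark3 in 2, and Mark4, Nuak1 and Nuak2 in the ATII gate only. In cells thinned to equal depth 3 of these were no longer separated, on fewer UMIs and with intervals that include the pooled ratios. They were Mark2 in ATI cells at 1.03 (0.773 to 1.37), Mark2 in keratin-high cells at 1.12 (0.848 to 1.495) and Mark3 in ATI cells at 1.07 (0.814 to 1.41). A Mark2 UMI was seen in 33.6% of GFP-positive and 36.6% of Stk11-positive ATI cells, against 78.9% and 63.5% before thinning. In keratin-high cells the thinned shares were 33.9% and 31.9%, against 87.5% and 78.8%. Mark4 moved the other way in thinned cells. It was lower in GFP-positive keratin-high cells, at 0.491 (0.286 to 0.863), against 0.885 by pooled CPM. A Mark4 UMI was seen in 6.31% of 634 GFP-positive and 13.5% of 163 Stk11-positive thinned cells (34.0% and 37.0% before thinning). In ATI cells Mark4 was at 0.589 (0.266 to 1.24), not separated. Whether the ratios differ between gates was not tested over mice.

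**Figure D4:**
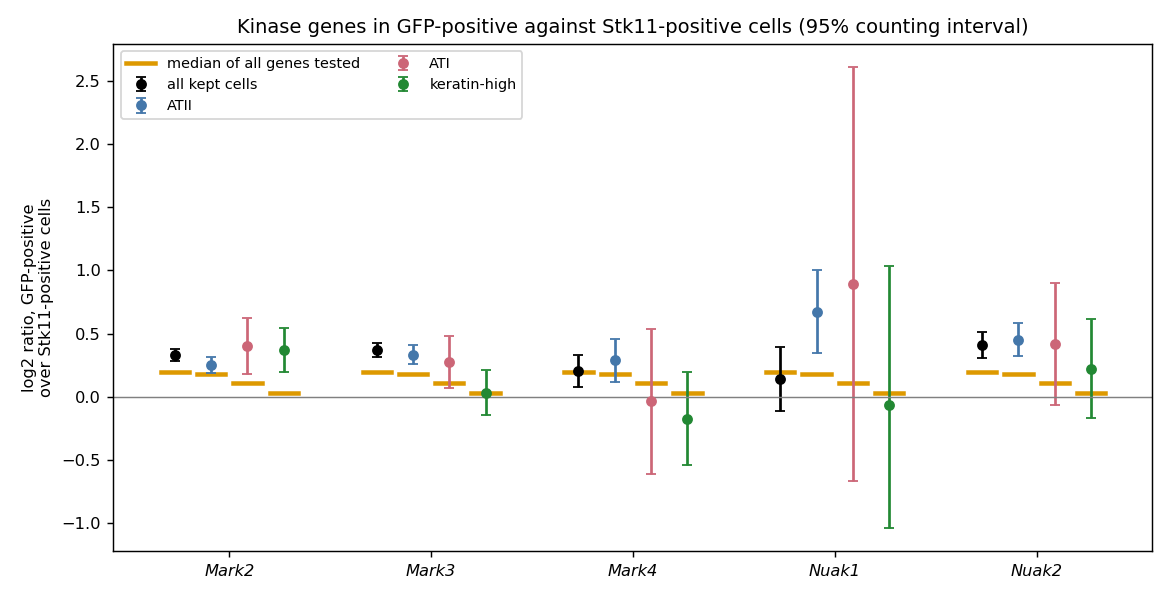
Log2 ratio of the level in GFP-positive over that in Stk11-positive cells for 5 genes, over all kept cells (black) and within the ATII (blue), ATI (red) and keratin-high (green) gates. Points carry exact conditional 95% intervals, and the gold marks give the median ratio of the 12323 genes tested in the same comparison, from 0.03 in keratin-high cells to 0.20 in all kept cells. Mark2 lies above 0 in all 4, and the Nuak1 ATI point, on 11 and 6 UMIs, has the widest interval.

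The genes around these kinases were described by 4 lists. The share of all genes past 1.5-fold, against which each count is read, was 44.7% in keratin-high over ATII cells, 42.8% in ATI over ATII cells and 18.8% in GFP-positive over Stk11-positive cells. Counts relative to the median gene are read against the shares on that scale, 35.9% in keratin-high over ATII cells and 33.8% in ATI over ATII cells. Of the 5 genes of the LKB1 complex, 1 was past it upward and 1 downward in keratin-high over ATII cells, near that share, with a list median of 0.23 on the log2 scale against 0.33 for all genes. Stk11 itself had 10.8 CPM in keratin-high and 24.3 CPM in ATII cells, a ratio of 0.443 (0.394 to 0.495), and Cab39, which encodes the scaffold MO25 of the complex, had 119 and 70.5 CPM, or 1.68 (1.62 to 1.75). In ATI over ATII cells 2 of 5 were upward, Cab39 at 1.93 (1.83 to 2.02) and the pseudokinase gene Strada at 1.73 (1.48 to 2.01). Relative to the median gene none was higher and 1 lower, Stk11, in keratin-high cells, and in ATI cells 1 was higher, Cab39, and none lower. Between GFP-positive and Stk11-positive cells only Stk11 was past the fold, which the split fixes.

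Of the 8 genes of other kinases that LKB1 activates, 6 were tested, as Brsk1 and Brsk2 were under 1 CPM, and in both gate comparisons 1 was upward and 1 downward. Sik1 was the one upward in both, at 1.67 (1.60 to 1.75) in keratin-high and 1.75 (1.65 to 1.86) in ATI cells. The one downward was Prkaa2, which encodes a catalytic subunit of AMPK, at 0.383 (0.305 to 0.476) in keratin-high cells, and Sik2 at 0.479 (0.340 to 0.657) in ATI cells. Relative to the median gene none was higher and 2 of the 6 were lower in both comparisons, Prkaa2 and Sik2. That is near the share of all genes past the fold on that scale, 35.9% and 33.8%. In GFP-positive cells Prkaa2 was lower at 0.579 (0.510 to 0.657) and the other 5 were within the fold.

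Of 22 substrates, polarity partners and 14-3-3 genes tied to the MARKs, 21 were tested and 12 were higher by 1.5-fold in keratin-high than in ATII cells, with none lower, and 12 were higher and none lower in ATI cells. Of all genes tested, 44.7% and 42.8% were past the fold in either direction. The list medians were 0.87 and 0.66 on the log2 scale, against 0.33 for all genes in both. Relative to the median gene 9 of the 21 were higher and 1 lower in keratin-high cells, and 6 and 1 in ATI cells. The lower one was Pard3, of the PAR complex, named here after its value was seen, at −0.81 and −0.67. On that scale 35.9% and 33.8% of the genes tested were past the fold in either direction. The largest ratios were those of Sfn, 14-3-3 sigma, at 10.4 (10.2 to 10.7) in keratin-high but 0.973 (0.910 to 1.04) in ATI cells, and Map2, a microtubule-associated protein and MARK substrate, at 7.70 (6.62 to 8.97) and 4.13 (3.26 to 5.21). Ywhah, 14-3-3 eta, was at 4.47 (4.36 to 4.57) and 2.79 (2.69 to 2.90), and Pard6b, of the apical PAR complex, at 2.78 (2.61 to 2.96) and 3.86 (3.58 to 4.17). Sfn is also 1 of the 6 transitional markers. Between GFP-positive and Stk11-positive cells 2 of 21 were past the fold, Sfn at 2.19 (2.14 to 2.25) and Map2 at 1.70 (1.46 to 1.97), and the list median of 0.31 was nearer that of all genes, 0.20. Mark2, Mark3 and Mark4 lay between 1.29 and 1.36 in the same keratin-high comparison.

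All 10 genes of the myosin phosphatase and myosin on which the NUAKs act were tested. In keratin-high over ATII cells 9 were higher and none lower, with a median of 1.04, and in ATI cells 8 were higher and none lower, with a median of 0.83. The shares of all genes past the fold in either direction were 44.7% and 42.8%. Relative to the median gene 6 and 5 of the 10 were higher and none lower, where 35.9% and 33.8% of the genes tested were past the fold in either direction. Myl9, a myosin light chain, had 9.59 CPM in keratin-high and 0.155 CPM in ATII cells, a ratio of 61.9 (41.1 to 97.3), on 294 and 25 UMIs, while the keratin-high gate held 1 cell of the fibroblast marker gate. Myl12a was at 2.55 (2.51 to 2.59) in keratin-high and 2.87 (2.82 to 2.93) in ATI cells, Myl12b at 2.31 (2.27 to 2.35) and 2.79 (2.73 to 2.85), and Myh9, a heavy chain, at 2.87 (2.79 to 2.94) and 2.37 (2.28 to 2.47). In GFP-positive cells 1 of 10 was past the fold, Ppp1r12b, a targeting subunit of the phosphatase named here after its value was seen, at 1.79 (1.65 to 1.94). Nuak1 and Nuak2 were at 0.722 and 0.923 in the same keratin-high comparison.

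Last, the genes whose levels ran most like each member were sought over 12 groups of cells, the 3 gates and the ungated cells each split by GFP, Stk11 or neither. The measure was Pearson's r of log2(CPM + 1) over 7844 genes of at least 10 CPM, and it is a description, since the 12 groups share libraries and differ in depth. Over these groups Mark1 ran from 0 to 17.1 CPM and was nearest to Colec12, Acta2 and Gm13889, with r of 0.995, 0.994 and 0.992. These r are set by the ungated Stk11-positive and ungated neither groups, at 9.47 and 17.1 CPM, where the fibroblast gate cells through which Mark1 reached 1 CPM mostly lay, as it was at or below 0.219 CPM in the other groups. Mark2 ran from 63.2 to 92.1 CPM, with Trpm4 (0.955), Tshz1 (0.952) and Tpcn2 (0.9503). Mark3 ran from 47.4 to 97.2 CPM and was nearest to 3 genes of RNA-binding proteins, Matr3 (0.994), Snrnp70 (0.990) and Hnrnpr (0.989).

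For the remaining members the nearest genes were less close. Mark4, from 9.80 to 18.8 CPM, was nearest to Peak1 (0.929), Cep83 (0.903) and Nck1 (0.898). Nuak1, from 1.36 to 7.84 CPM, was nearest to Ifitm2 (0.946), Ext1 (0.942) and Rgs2 (0.929), and Nuak2, from 14.4 to 22.3 CPM, to Pde4d (0.920), Rnf166 (0.915) and Cdk2 (0.913). Among the members themselves r was 0.885 for Mark1 and Nuak1, both highest in the ungated cells with neither GFP nor Stk11, where most fibroblast gate cells lay, and 0.707 for Mark2 and Mark3. Nuak1 and Nuak2 were at 0.373.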

How the data were processed

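Droplet 3′ RNA libraries of sorted tumour cells from 6 mice were read by the authors with Cell Ranger (version 3.0.2 per the file header) against mm10, and the deposited values are UMI counts per gene and cell, not normalized. Mice are not named per cell, so cohorts were not compared, and no columns of other samples were present. No aligner setting beyond these is given in the sources used here.

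Cells with at least 500 genes and at most 20% mitochondrial UMIs were kept, stromal cells were not removed and no doublet caller was run. Counts were summed per group and divided by the group's total (CPM). Intervals are exact 95% Poisson, binomial (Clopper-Pearson) or conditional binomial and cover counting error only. Ratios were compared over genes of at least 1 CPM at a fold of 1.5, with a count of 0 set to 3 counts. Simulated Poisson counts for keratin-high over ATII, over 11690 genes, returned 98% of 50 genes set to a fold of 0.5 and 100% of 50 set to 2. They hold no spread between cells or mice, so they check only the computation of the calls. Cells were thinned to 5000 UMIs for shares, which left out 1099.

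The 6 members, the gates and the lists were chosen with earlier results of these data known. Named genes were the members, the genes of the gates, up to 4 genes of a list with the largest ratios past the fold and 3 genes nearest each member. Sequences and positions came from GENCODE M21 (GRCm38). Alternatives changed cell filters, gate limits, scaling, depth, gene filter and fold. Python 3.11.15, NumPy 2.4.6, SciPy 1.17.1 and pandas 2.3.3 were used.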

Additional observations from a re-analysis of the deposited data

Results flagged for a closer look

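The 1753 cells with over 20% mitochondrial UMIs entered no comparison, and the 6 kinase genes were counted in them above the limit of 3 counts. Their levels there were 0.725 CPM for Mark1, 80.6 CPM for Mark2, 88.0 CPM for Mark3, 15.9 CPM for Mark4, 4.06 CPM for Nuak1 and 27.0 CPM for Nuak2. Over all kept cells the levels were 1.85, 73.2, 61.8, 12.8, 3.37 and 18.0 CPM in the same order, so all but Mark1 were higher in the cells left out. The exact 95% Poisson intervals did not overlap for Mark3 and Nuak2 and did for the other 4 genes. No explanation was tested.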

How the results depend on the processing

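No paired analysis was possible because cells were not assigned to mice, and leaving out a mouse was not possible for the same reason. Counting error alone limits the precision given, and depth limits Mark1 and Nuak1 most. Over 135 recomputed gene counts 108 stayed within 1.5 times the reported one, and 91 of 107 medians and 469 of 535 single ratios stayed within the counting interval of the reported value. Directions separated by counting turned for 5 single ratios. Relative to the median gene, Mark2 and Mark4 in ATI over ATII cells went to −0.0850 and −0.0529. Mark4 in GFP-positive over Stk11-positive cells went from 0.20 to −0.0026 in thinned cells, −0.0377 within ATI and −0.177 within keratin-high cells.

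Genes past the fold changed by construction with the fold and the gene filter. For keratin-high over ATII cells they numbered 5508, and 8350 at a fold of 5/4, 2749 at a fold of 2, 3217 among genes of at least 10 CPM and 8541 among all genes with a UMI in both groups. For ATI over ATII cells they numbered 5275, and 8371, 2566 and 2978 for the first 3 of these settings. For keratin-high over ATI cells they numbered 3486, and 6060, 1798, 1589 and 5518. For GFP-positive over Stk11-positive cells they numbered 2314 in all kept cells, and 5330, 1185, 837 and 5782, with 1272 when the 3 gates had equal weight. In ATII cells they numbered 1855, and 4388, 852, 580 and 4337, in keratin-high cells 2339, and 4581, 1108, 788 and 3572, and in ATI cells 2366, and 4950, 1008 and 724 for the first 3.

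The median log2 ratio of the 5 members without Mark1 was 0.36 for keratin-high over ATII cells, and 0.0660 with the 10 most abundant genes left out of the total, 0.0282 relative to the median gene, 0.26 in cells thinned to 5000 UMIs and 0.27 as a mean of per-cell CPM. For ATI over ATII cells it was 0.25, and 0.0586 and −0.0850 with the first 2 of these settings, and for keratin-high over ATI cells it was 0.11, and 0.0074 with the first. For GFP-positive over Stk11-positive cells it was 0.33 in all kept cells, and 0.21 with the first and 0.13 with the second. It was 0.38 without fibroblast, endothelial or immune marker cells, a setting chosen after seeing the data, and within gates it was 0.40 in ATI and 0.0303 in keratin-high cells. In ATII cells it was 0.33, and 0.25, 0.15 and, thinned, 0.44, and in ATI cells the thinned value was 0.10. Without the 10 most abundant genes the share of past-fold genes that were higher was 50.3% for keratin-high over ATII, 54.3% for ATI over ATII, 43.1% for keratin-high over ATI and 44.1% for GFP-positive over Stk11-positive cells. Nuak1 in GFP-positive over Stk11-positive ATII cells was 0.67, and 1.40 thinned, and in all kept cells 0.14, and 0.50 with equal weight to the gates. Apart from the settings that the construction explains, the cause was not tested.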
